A study of Mus musculus with 10 samples.

Results

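The 72 clustered and linker histone genes described here are those whose symbol in the deposited gene table begins with H1f, H2ac, H2bc, H3c or H4c and ends in a number. They make up 72 of the 57180 genes in that table, with 11 H1, 18 H2A, 18 H2B, 12 H3 and 13 H4 genes. They were measured in mouse brain NSPCs (neural stem and progenitor cells), in Mina53-KO cells (3 RNA-seq and 2 CUT&Tag libraries) and in WT cells (3 RNA-seq and 2 CUT&Tag libraries), all labelled as untreated. Mina53 is the protein of the gene Riox2, and the series title names it as a demethylase of an asymmetrically dimethylated arginine on histone H4, so the 13 H4 genes are kept apart from the others. The labels give no strain, age, sex, brain region or way in which the KO was made, and they name no CUT&Tag antibody. Whether replicate libraries stem from different animals or cultures is not stated, and the p-values below therefore measure the spread between libraries alone, which may be technical.

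Histones H2A, H2B, H3 and H4 form the protein core around which DNA is wrapped in the nucleosome, and the linker histones of the H1 family bind where the DNA enters and leaves that core. Most of their genes lie in clusters, are transcribed during S phase of the cell cycle, and give mRNAs that end in a conserved stem-loop in place of a poly(A) tail. The replacement linker gene H1f0 lies outside the clusters and gives polyadenylated mRNA. RNA-seq libraries selected with oligo(dT), as here, therefore capture mainly the polyadenylated transcripts of these genes, and not most of the stem-loop mRNA that dividing cells mostly use. The values below are called levels of polyadenylated RNA, and how much stem-loop mRNA was carried over was not tested.

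Riox2, the targeted gene, measured 3.58 ± 0.297 CPM (counts scaled to the size of the library) in KO libraries and 18.5 ± 1.39 CPM in WT libraries (SD, n = 3 each), and its log2 fold change was -2.37 with an SE of 0.15 (edgeR adjusted p = 0.000324). The RNA-seq libraries held 19923010 to 25939376 counts and the CUT&Tag libraries 2913959 to 4038765 reads in regions. All 10 neural stem and progenitor markers looked for (Nes, Sox2, Vim and others) were tested, with summed levels of 5699 to 6859 CPM in KO and 4567 to 4996 CPM in WT libraries. Of these markers edgeR called 1, Vim, as higher in KO, and DESeq2 called 2. Over all tested genes the shares called were 3.43% and 6.26%. The 4 astrocyte markers summed to 912 to 1134 CPM in KO and 1024 to 1331 CPM in WT libraries, with S100b lower in KO, and the 5 neuron markers to 672 to 939 CPM in KO and 528 to 732 CPM in WT libraries. The median log2 fold change was 0.04 over the NSPC markers, with 7 of 10 positive, and -0.05 over the neuron markers, with 2 of 5 positive. In edgeR, 4 of 10 NSPC, 2 of 4 astrocyte and 2 of 5 neuron markers had an unadjusted p under 0.05. Over all tested genes that share was 13.7%. The 4 oligodendrocyte markers summed to 9.35 to 9.94 CPM in KO and 12.4 to 12.8 CPM in WT libraries, and the microglial, endothelial, fibroblast and erythroid markers stayed under 1 CPM in every library, with Cx3cr1, Cdh5, Cldn5 and Hbb-bs at 0. The part of these cell types in the histone values was not tested. The share of counts on mitochondrial genes split the RNA-seq libraries across genotype, with 2.68%, 2.65% and 4.64% in KO libraries 1 to 3 and 2.31%, 5.71% and 3.52% in WT libraries 1 to 3.

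Promoter letters differ between the histone families. The 8 promoters shown here are a selection, not a full list, from genes with high polyadenylated RNA or with the CUT&Tag regions described below. RefSeq promoters (GRCm38.p6) matched 62 of the 72 genes. Capitals mark 4 short motifs searched in the 250 bases before the gene start: GGTCCG (the core of the H4 gene element bound by HINFP in human cells), CCAAT (read as ATTGG on the other strand) and ATTTGCAT (the octamer of histone H2B promoters), each on both strands, and TATA on the gene's strand 40 to 20 bases before the start. Matches of different motifs may share letters and were each counted. Each sequence is the 120 bases before the RefSeq start, 5′ to 3′ on the gene's strand, at chr13:22041363-22041482 (minus strand) for H4c9, chr13:23698459-23698578 (minus strand) for H4c3, chr13:23581448-23581567 (plus strand) for H4c4, chr13:21734914-21735033 (plus strand) for H4c11, chr13:23756817-23756936 (plus strand) for H4c2, chr13:23683960-23684079 (minus strand) for H2ac6, chr13:23738687-23738806 (plus strand) for H1f2 and chr15:79028092-79028211 (plus strand) for H1f0.
H4c9: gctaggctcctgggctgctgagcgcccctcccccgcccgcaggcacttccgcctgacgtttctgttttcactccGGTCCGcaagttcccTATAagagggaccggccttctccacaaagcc
H4c3: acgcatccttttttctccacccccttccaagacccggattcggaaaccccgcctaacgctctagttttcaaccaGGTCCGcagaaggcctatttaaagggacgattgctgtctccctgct
H4c4: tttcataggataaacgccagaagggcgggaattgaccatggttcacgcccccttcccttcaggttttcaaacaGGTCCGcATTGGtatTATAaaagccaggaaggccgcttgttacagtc
H4c11: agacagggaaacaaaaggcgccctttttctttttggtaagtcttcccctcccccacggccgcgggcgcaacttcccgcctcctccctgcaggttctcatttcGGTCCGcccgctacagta
H4c2: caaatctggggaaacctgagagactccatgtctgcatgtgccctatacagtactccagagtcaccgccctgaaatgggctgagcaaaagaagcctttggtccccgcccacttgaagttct
H2ac6: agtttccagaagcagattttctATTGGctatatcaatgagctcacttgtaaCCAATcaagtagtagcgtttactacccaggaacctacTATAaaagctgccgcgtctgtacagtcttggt
H1f2: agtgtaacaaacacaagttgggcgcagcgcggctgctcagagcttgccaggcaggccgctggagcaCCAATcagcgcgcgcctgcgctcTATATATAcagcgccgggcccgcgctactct
H1f0: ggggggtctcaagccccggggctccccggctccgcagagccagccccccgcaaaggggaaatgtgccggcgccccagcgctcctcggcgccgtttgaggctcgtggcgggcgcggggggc

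Of the 5 H4 promoters shown, 4 hold GGTCCG and that of H4c2 holds none of the 4 motifs, and the 2 replication-linked promoters shown beside them, of H2ac6 and H1f2, hold CCAAT and TATA. The H1f0 window held no match to these letters. Over all promoters that matched, GGTCCG was found at 8 of 11 H4 genes (72.7%), 0 of 17 H2A, 1 of 14 H2B, 1 of 10 H3 and 1 of 10 H1 genes, against 6.72% of all 32851 promoters in the table. The H1 gene with GGTCCG was H1f10, whose promoter is not among those shown. CCAAT was found at all 17 H2A and all 14 H2B promoters, at 8 of 10 H3, 7 of 10 H1 and 3 of 11 H4 promoters, against 33.8% of all promoters. The octamer was found at 6 of 17 H2A and 6 of 14 H2B promoters and at none of the H1, H3 and H4 promoters, against 1.60% of all. TATA stood in its window at 5 of 10 H1, 5 of 17 H2A, 1 of 14 H2B, 5 of 10 H3 and 5 of 11 H4 promoters, against 5.34% of all. These matches describe letters in a window and not bound sites.

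Polyadenylated histone RNA came from a few genes. Of the 72 genes, 21 passed the filter on low counts and could be tested: 5 of H1, 4 of H2A, 8 of H2B, 3 of H3 and 1 of H4. Of the 51 others, 8 had 0 counts in all 6 libraries (H1f7, H2ac1, H2ac15, H2ac21, H2ac22, H2bc1, H2bc13 and H4c2), which allows up to 0.0208 CPM (3 counts over the 6 libraries, counting error only). The other 43 had summed counts of 1 to 49.9, the highest being the H3 gene H3c8, while the tested gene with the fewest counts averaged 21.5 per library. In mean CPM, 19 genes reached 1 and 5 reached 10. These 5 genes, H1f0, H1f2, H2bc4, H1f10 and H2ac25, held 87.9% of the summed CPM of all 72, with 37.8% from H1f0 alone. By family, H1 held 68.6% of the sum, H2B 19.8%, H2A 8.10%, H4 2.07% and H3 1.45%.

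Divided by the deposited gene length, the highest level was that of H1f0, at 60.3 ± 10.5 CPM per kb in KO and 56.1 ± 9.07 CPM per kb in WT libraries (SD, n = 3 each, as for all levels here). H1f2 followed at 47.2 ± 7.15 CPM per kb in KO and 44.1 ± 5.89 CPM per kb in WT, then H2bc4 at 40.6 ± 10.4 in KO and 35.3 ± 7.84 CPM per kb in WT. H1f10, H2ac25 and H4c9 came next, with 21.9 ± 7.57, 10.3 ± 2.19 and 8.43 ± 2.62 CPM per kb in KO, against 17.1 ± 7.52, 8.02 ± 1.56 and 5.92 ± 1.05 CPM per kb in WT. Each of these 6 genes lay above the next in 6 of 6 libraries. Below them the order was not separated by the spread: H2ac19 exceeded H2ac18 in 4 of 6 libraries, H2ac18 exceeded H2bc21 in 4, H2bc21 exceeded H2bc27 in 5 and H2bc27 exceeded H2bc6 in 4. For scale, the replacement histone genes outside the rule averaged higher levels per length over the 6 libraries, with H2az1 at 319.6, H3f3b at 168, H3f3a at 154 and H2ax at 96.8 CPM per kb.

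**Figure D1:**
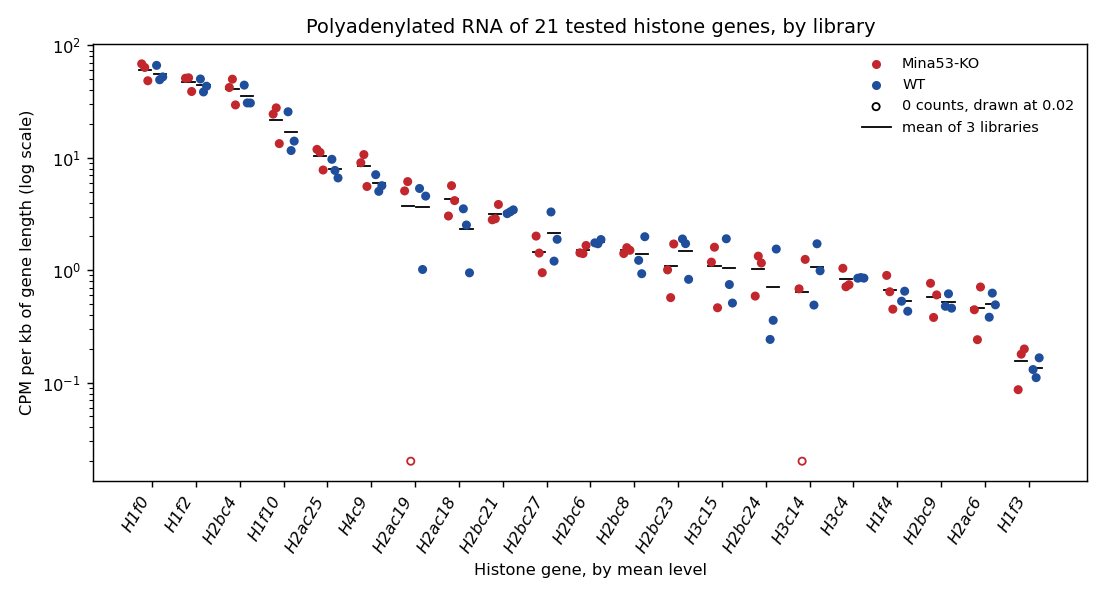
Level of each of the 21 tested histone genes in each RNA-seq library, in CPM per kb of gene length on a log scale, with KO libraries left of WT libraries and lines at the mean of 3 libraries; open points are libraries with 0 counts, drawn at 0.02. The first 6 genes, H1f0 to H4c9, averaged between 58.2 and 7.18 CPM per kb over the 6 libraries, and KO and WT points overlap for every gene shown except H2bc6.

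The short genes contributed little. Of 41 genes with a deposited length under 700 bases, 4 were tested, and together the 41 held 2.68% of the histone CPM. Of 18 genes of 1200 bases or more, 14 were tested, and these 18 held 81.2%. Across the 72 genes, Spearman's rho between deposited length and mean CPM was 0.64, given as a description, since the genes share the same libraries and CPM is not divided by length. The median level per length was 0.849 CPM per kb for the long genes and 0.110 CPM per kb for the short ones.

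The comparison of Mina53-KO with WT cells asked whether polyadenylated histone RNA differed between genotypes. No histone gene passed the test: 0 of the 21 tested genes had an edgeR adjusted p under 0.05, 0 had an unadjusted p under 0.05, and DESeq2 called 0. Over all 15298 tested genes these shares were 3.43% (525 genes), 13.7% and 6.26%. The log2 fold changes of the 21 genes ran from -0.71 to 0.90 with a median of 0.10. Of the 21, 14 were positive, against 7823 of all 15298 tested genes. The median over all tested genes was 0.01. The SE of these estimates ranged from 0.15 to 1.04 with a median of 0.34. Changes of that size were not detectable, and larger ones could be missed: H2ac18, at 0.90 with an SE of 0.45, did not pass. In this fit without a covariate, a wide SE was not limited to thinly counted genes, as that of H1f10 was 0.35 with 3365 counts in total. In these bulk libraries, fewer cells with an RNA and less of it per cell cannot be told apart.

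**Figure D2:**
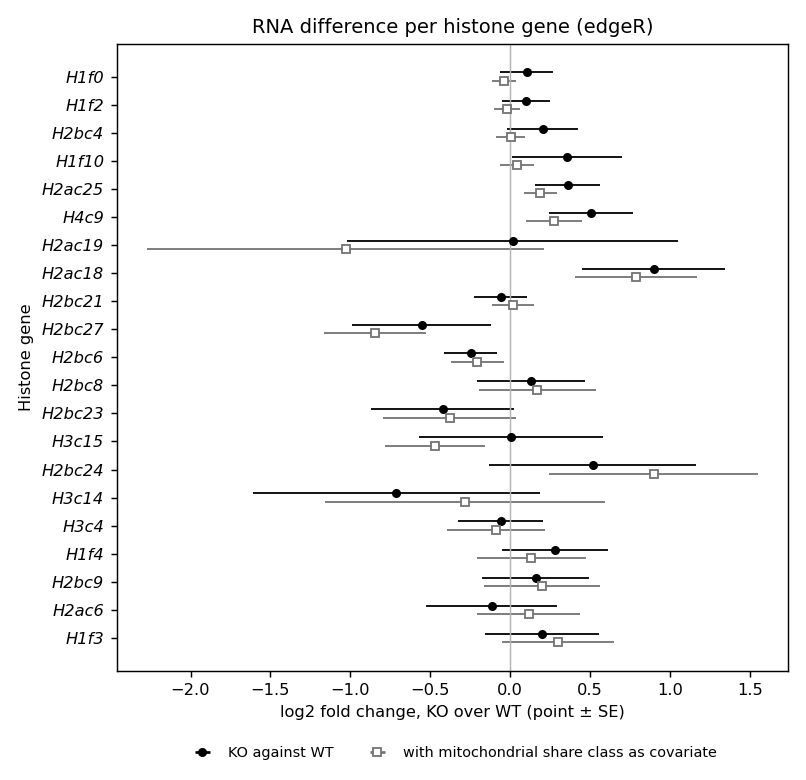
Log2 fold change, KO over WT, of the 21 tested histone genes in order of level, with bars of 1 SE, from edgeR without a covariate (filled points) and with the mitochondrial share class of the library as a covariate (open squares). Points lie between -0.71 and 0.90 without the covariate, and H1f0, H1f2, H2bc4 and H1f10 lie between -0.04 and 0.04 with it.

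Among the linker histones, H1f0 encodes H1.0, the replacement subtype that accumulates in cells leaving the cell cycle. It measured 141, 131 and 99.7 CPM in KO libraries 1 to 3 and 137, 102 and 108 CPM in WT libraries 1 to 3. KO library 3 and WT libraries 2 and 3 were low, the other 3 libraries were high, and the genotypes overlapped, with a log2 fold change of 0.10 with an SE of 0.17 (adjusted p = 0.901). H1f2, which encodes the somatic subtype H1.2 within the chromosome 13 cluster, measured 79.7, 80.4 and 60.7 CPM in KO and 78.5, 60.2 and 67.7 CPM in WT, with the same 3 libraries low. Its log2 fold change was 0.10 (SE 0.15, adjusted p = 0.897). H1f10, which encodes the divergent subtype H1.10, measured 29.8, 33.9 and 16.3 CPM in KO and 31.3, 14.1 and 17.1 CPM in WT. The high libraries of H1f10 stood at 29.8 CPM or more and the low ones at 17.1 CPM or less, in both genotypes, and its log2 fold change was 0.35 (SE 0.35, adjusted p = 0.823). H1f4 and H1f3, for the somatic subtypes H1.4 and H1.3, averaged 1.16 and 1.08 CPM over the 6 libraries, with log2 fold changes of 0.28 and 0.20. The testis and oocyte linker genes H1f6, H1f7, H1f8 and H1f9 were not tested.

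Of the H2A genes, H2ac25 had the highest level, at 25.5, 23.98 and 16.7 CPM in KO libraries 1 to 3 and 20.8, 16.6 and 14.2 CPM in WT libraries 1 to 3. KO libraries 1 and 2 exceeded every WT library, KO library 3 lay within the WT range, and the log2 fold change was 0.36 (SE 0.20, adjusted p = 0.553). H2ac18 measured 1.78, 3.31 and 2.44 CPM in KO and 2.06, 1.48 and 0.556 CPM in WT. The smallest p of the 21 genes was that of H2ac18 (unadjusted p = 0.0799, adjusted p = 0.465), with a log2 fold change of 0.90 (SE 0.45). H2ac18 and H2ac19 are near-identical copies, and H2ac19 measured 2.68, 3.25 and 0 CPM in KO and 2.82, 0.536 and 2.41 CPM in WT. Since reads may be split between them, their sum is also given: 4.46, 6.56 and 2.44 CPM in KO and 4.88, 2.02 and 2.97 CPM in WT, a log2 ratio of means of 0.45 with overlapping genotypes. H2ac6 averaged 1.20 CPM, with a log2 fold change of -0.12 with an SE of 0.41 (adjusted p = 0.955).

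Of the H2B genes, H2bc4 was the most abundant, at 48.8, 57.9 and 34.2 CPM in KO libraries 1 to 3 and 51.3, 35.6 and 35.5 CPM in WT libraries 1 to 3. Its high libraries were again KO libraries 1 and 2 and WT library 1, and its log2 fold change was 0.20 (SE 0.22, adjusted p = 0.847). H2bc21 measured 7.36, 7.52 and 10.1 CPM in KO and 8.36, 8.67 and 9.03 CPM in WT, with a log2 fold change of -0.06 with an SE of 0.17 (adjusted p = 0.941). H2bc6 measured 3.54, 3.49 and 4.12 CPM in KO and 4.34, 4.27 and 4.65 CPM in WT. Each KO library of H2bc6 lay below each WT library, and its log2 fold change was -0.25 (SE 0.17, unadjusted p = 0.171, adjusted p = 0.657). It was the only tested gene whose genotypes did not overlap, 4.76% of the 21, against 19% of all tested genes. By the deposited coordinates (GRCm39), H2bc6 spans chr13:23767653-23805107 on the minus strand and overlaps the end of H1f4, also on the minus strand, so that its counts may hold reads of a neighbour. H2bc27 averaged 0.898 CPM in KO and 1.31 CPM in WT, with a log2 fold change of -0.55 with an SE of 0.44 (adjusted p = 0.739). The other 4 tested H2B genes, H2bc8, H2bc9, H2bc23 and H2bc24, averaged between 0.890 and 1.62 CPM, with log2 fold changes between -0.42 and 0.52. H2bc23 and H2bc24, of nearly equal deposited length, had a log2 ratio of -0.05 for their sum.

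The H3 genes were the thinnest family in polyadenylated RNA. H3c15 and H3c14 both encode the replication-linked H3.2 protein. H3c15 measured 1.20, 1.63 and 0.473 CPM in KO libraries 1 to 3 and 1.94, 0.761 and 0.521 CPM in WT libraries 1 to 3, while H3c14 measured 1.25, 0 and 2.28 CPM in KO and 0.894, 3.14 and 1.80 CPM in WT. KO library 2, the one library without H3c14, was the highest KO library for H3c15. Since reads may be split between the copies, their sum is also given: 2.45, 1.63 and 2.75 CPM in KO and 2.84, 3.90 and 2.32 CPM in WT, a log2 ratio of means of -0.41 with overlapping genotypes. The log2 fold change was 0.01 for H3c15 (SE 0.57, adjusted p = 0.998) and -0.71 for H3c14 (SE 0.90, adjusted p = 0.871). H3c4 averaged 1.04 ± 0.226 CPM in KO and 1.07 ± 0.0079 CPM in WT, with a log2 fold change of -0.06 with an SE of 0.27 (adjusted p = 0.966).

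Of the 13 H4 genes, most of which encode one identical protein, H4c9 alone passed the filter, and it held 79.5% of the H4 CPM. H4c9 measured 6.57, 7.77 and 4.04 CPM in KO libraries 1 to 3 and 5.15, 3.66 and 4.11 CPM in WT libraries 1 to 3. KO libraries 1 and 2 lay above every WT library, KO library 3 lay among them, and the log2 fold change was 0.51 (SE 0.26, unadjusted p = 0.0900, adjusted p = 0.494). The difference did not pass the threshold. The other 12 H4 genes together had 24.04, 35 and 29.41 counts in KO libraries 1 to 3 and 40.01, 34.32 and 30.63 counts in WT libraries 1 to 3, or 1.19, 1.45 and 1.14 CPM in KO and 1.69, 1.41 and 1.18 CPM in WT.

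Summed by family, every family overlapped between genotypes. H4 summed to 7.39 ± 2.05 CPM in KO and 5.73 ± 0.963 CPM in WT (SD, n = 3 each), a log2 ratio of 0.37. H1 summed to 227 ± 41.3 CPM in KO and 207 ± 36.9 CPM in WT (log2 ratio 0.13), and H2A to 28.7 ± 5.83 CPM in KO and 22.6 ± 4.56 CPM in WT (log2 ratio 0.34). H2B summed to 65.1 ± 9.96 CPM in KO and 60.2 ± 9.33 CPM in WT (log2 ratio 0.11), and H3 to 4.19 ± 0.521 CPM in KO and 4.96 ± 0.615 CPM in WT (log2 ratio -0.24). No p is given for these sums.

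Levels of the most abundant histone genes separated by the mitochondrial share of the library and overlapped between genotypes. The libraries of lower share (KO libraries 1 and 2 and WT library 1) did not overlap those of higher share (KO library 3 and WT libraries 2 and 3) for 11 of the 21 genes (52.4%), against 41.8% of all tested genes. In 8 of the 21 (38.1%, against 21.3% of all tested genes) every library of lower share was above every one of higher share: H1f0, H1f2, H1f10, H2ac25, H2ac19, H2bc4, H3c15 and H4c9. H2ac6, H2bc21 and H3c14 lay the other way. With the share class as a covariate, edgeR called 11.1% of all tested genes and 0 of the 21 histone genes. The estimates of the abundant genes moved towards 0, to -0.04 for H1f0, -0.02 for H1f2, 0.00 for H2bc4, 0.04 for H1f10 and 0.28 for H4c9 (adjusted p = 0.405). Their SEs in that order were 0.08, 0.08, 0.09, 0.11 and 0.17, against 0.17, 0.15, 0.22, 0.35 and 0.26 without the covariate. Not every SE fell, as that of H2ac19 was 1.24 against 1.04. Of the 21 log2 fold changes, 12 were positive in the fit with the covariate. H2bc27 was the one gene with an unadjusted p under 0.05 in that fit, at a log2 fold change of -0.85 (SE 0.32, unadjusted p = 0.0221, adjusted p = 0.128). Within the libraries of lower and of higher share, the log2 ratios of the family sums were 0.31 and 0.00 for H4, 0.01 and -0.06 for H1, 0.21 and 0.13 for H2A, -0.01 and -0.00 for H2B, and -0.14 and -0.29 for H3. With 1 library in an arm, these within-class ratios have no test, and the part of the share in the histone levels was not tested.

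**Figure D3:**
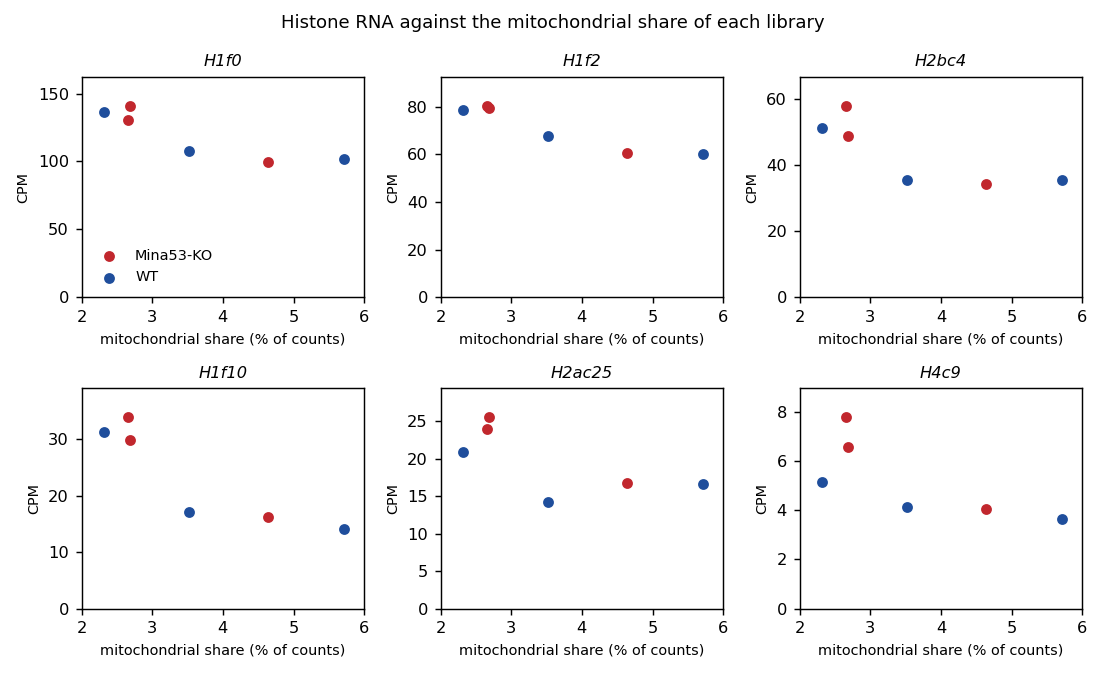
CPM of 6 histone genes against the share of counts on mitochondrial genes in each RNA-seq library, with KO and WT libraries in different colours. The 3 libraries between 2.31% and 2.68% lie above the 3 between 3.52% and 5.71% for each of the 6 genes, whichever the genotype.

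The 4 related lists were histone variants, histone mRNA processing and turnover, histone chaperones and S phase genes. Without a covariate, edgeR called 0 genes in each. The first 2 lists also had 0 genes at an unadjusted p under 0.05 and 0 by DESeq2. With the share class as a covariate, edgeR called 2 of the 35 S phase genes higher and 1 lower in KO. That fit called 11.1% of all tested genes and 0 in the other lists. Histone variants replace the replication-linked histones outside S phase. Of 9 tested variants, 7 had positive log2 fold changes (7823 of 15298 over all tested genes), with a median of 0.05. The smallest p-values were those of Macroh2a1 (0.26, SE 0.12, adjusted p = 0.413), a variant with a large extra domain, H3f3a (0.22, adjusted p = 0.515), which encodes H3.3, and H2aj (0.48, adjusted p = 0.612). H2aj measured 25.3, 31.6 and 16.9 CPM in KO libraries 1 to 3 and 25.1, 12.8 and 15.0 CPM in WT libraries 1 to 3, high in the same 3 libraries as H1f0. Of 24 tested genes of histone mRNA transcription, 3′ processing and turnover, the median log2 fold change was -0.02. Slbp, whose protein binds the stem-loop, measured 73.7 ± 2.05 CPM in KO and 74.4 ± 10.3 CPM in WT (-0.02, adjusted p = 0.982), and Npat, the coactivator of histone gene transcription, 31.8 ± 5.70 CPM in KO and 37.3 ± 6.44 CPM in WT (-0.23, adjusted p = 0.722). Zfp473, a component of the 3′ processing machinery, and Srrt, of the cap-bound complex, had -0.31 (adjusted p = 0.716) and 0.17 (adjusted p = 0.831).

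Of 25 histone chaperone genes, 1 had an unadjusted p under 0.05 (13.7% of all tested genes did) and DESeq2 called 0 (6.26% of all), with a median of 0.02. That gene was Hjurp, the chaperone of the centromeric variant CENP-A, at 451 ± 14.3 CPM in KO and 374 ± 23.1 CPM in WT (log2 fold change 0.27, adjusted p = 0.225). Anp32e, a chaperone that removes H2A.Z, and Rbbp7, a histone-binding subunit of several complexes, had -0.13 (adjusted p = 0.680) and -0.17 (adjusted p = 0.801). Of 35 S phase genes the median was -0.05, 2 had an unadjusted p under 0.05 (Mcm6 and Ccne1) and DESeq2 called 1, Mcm6, shares below those over all genes. Mcm6, of the replicative helicase, measured 295 ± 5.50 CPM in KO and 236 ± 9.61 CPM in WT (0.32, SE 0.09, adjusted p = 0.120). Ccne1, cyclin E1, measured 45.6 ± 2.29 CPM in KO and 35.6 ± 2.22 CPM in WT (0.36, adjusted p = 0.149). Mcm3, of the same helicase as Mcm6, had 0.26 (adjusted p = 0.503).

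In CUT&Tag, an antibody guides a transposase that cuts nearby DNA, and the deposited table counts reads in 69418 regions merged over the 4 libraries. The comparison asked whether the signal at histone genes differed in KO. The authors assigned 23 regions to 21 of the 72 histone genes, 20 of them on chromosome 13 and 16 within 1 kb of the gene start. The regions were short (200 to 487 bases), and their mean reads per library stood between percentiles 1.5 and 90.4 of all regions, with a median of 39.0. The authors marked a peak in 1 library for 12 regions, in 2 libraries for 7, in 3 libraries for 3 (at H1f4, H2ac6 and H3c8) and in all 4 libraries for 1 (at H4c3). The same counts over all regions are not given here, so whether these marks are few or many for the table was not tested. None of the 23 passed the test: 0 had an edgeR adjusted p under 0.05, against 0.00722% of all tested regions (5 of 69209), 0 had an unadjusted p under 0.05, against 5.35%, and DESeq2 called 0.

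The H4 genes held 8 regions at 6 genes (H4c2, H4c3, H4c4, H4c11, H4c14 and H4c16), and the other 7 H4 genes, H4c9 among them, had none. The region with the most reads of all 23 was that of H4c3, at chr13:23885195-23885490 (GRCm39), at a distance of -2758 bases from the gene start, with 85 and 87 reads in KO libraries 1 and 2 and 67 and 78 reads in WT libraries 1 and 2. Scaled to reads in regions, it measured 23.3 ± 3.57 CPM in KO and 24.3 ± 3.76 CPM in WT (SD, n = 2 each), and its log2 fold change was -0.07 (SE 0.24, adjusted p = 0.981). The H4c14 region, over the gene start at chr3:96170299-96170785, had 26 and 38 reads in KO and 45 and 36 reads in WT. Scaled, both KO libraries of H4c14 were below both WT libraries, with a log2 fold change of -0.64 (SE 0.38, unadjusted p = 0.0915, adjusted p = 0.933). The smallest p of the 23 regions was that of H4c14.

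H4c2, whose RNA had 0 counts, had a region over its start (chr13:23940825-23941230) with 51 and 57 reads in KO and 40 and 31 reads in WT, a log2 fold change of 0.30 (SE 0.33). The 2 regions of H4c11 had 50 and 46 reads in KO and 43 and 60 reads in WT (log2 fold change -0.42), and 42 and 52 reads in KO and 43 and 33 reads in WT (0.00). The H4c16 region had 30 and 35 reads in KO and 23 and 20 reads in WT (0.29). The 2 regions assigned to H4c4 had 41 and 16 reads in KO and 29 and 22 reads in WT (-0.19), and 35 and 17 reads in KO and 26 and 17 reads in WT (-0.06). Scaled, KO libraries 1 and 2 measured 10.0 and 4.74 CPM in the first of these and 8.54 and 5.04 CPM in the other, a wider gap than between the genotype means. Over the 8 H4 regions, 5 log2 fold changes were negative and 3 positive, with a median of -0.07, and over the 15 regions of the other families the median was -0.08. Summed, the H4 regions held 95.5 ± 10.8 CPM in KO and 102 ± 0.401 CPM in WT (log2 ratio -0.10), with overlapping genotypes. That ratio depended on which regions were counted and on how the libraries were scaled. It was -0.0109 for regions placed at an H4 gene by the deposited coordinates. There, 1 region named for H4c4 lies at H2bc6. The H4c3 region and the more distant H4c11 region lie at none of the histone genes that had a region by name, the only ones searched. The regions that remain are those within 1 kb of the gene start. They gave 0.10 when library sizes were estimated anew from regions near gene starts alone.

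Outside H4, H2bc7 and H2ac15 had the smallest p of the regions with more signal in KO, H3c8 had the smallest p of those with less, and H1f3 had the most negative log2 fold change. The H2bc7 region had 25 and 23 reads in KO and 14 and 7 reads in WT, with a log2 fold change of 0.88 (SE 0.69, unadjusted p = 0.206, adjusted p = 0.934). H2ac15 had 29 and 31 reads in KO and 17 and 16 reads in WT (0.55, SE 0.53), and H1f3 had 14 and 8 reads in KO and 17 and 17 reads in WT (-0.96, SE 0.77). H3c8, whose region lies over the gene start, had 37 and 56 reads in KO and 56 and 45 reads in WT (-0.41, SE 0.31, unadjusted p = 0.184). These counts are small, and none of the differences passed the test. The genotypes did not overlap in 8 of the 23 regions (34.8%), 3 with KO above and 5 with KO below, against 34.7% of all tested regions.

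Of the other regions with the most reads in their family, H1f8, for the oocyte linker histone, had 49 and 52 reads in KO and 41 and 37 reads in WT. H1f4, H2bc11 and H2bc14 had 31 and 36, 31 and 42, and 24 and 26 reads in KO, against 26 and 31, 31 and 27, and 31 and 26 reads in WT, all over the gene start. The region assigned to H1f6, for the testis linker histone, had 38 and 35 reads in KO and 26 and 25 reads in WT, and by the authors' annotation it lies in the intron of H2bc4. H2ac6 had 40 and 34 reads in KO and 35 and 30 reads in WT over its start in GRCm39, and H3c1 had 41 and 29 reads in KO and 48 and 26 reads in WT. Whether the H2ac6 region covers the promoter printed above, which is from GRCm38.p6, was not tested. The region named for H2bc6 had 42 and 16 reads in KO and 21 and 15 reads in WT, and at chr13:23805383-23805713 it lies inside H1f4 by the deposited coordinates. Reads summed per gene gave 0 calls of 21 in edgeR, against 0.088% of all genes with regions, with 0 at an unadjusted p under 0.05, against 7.64%, and 0 by DESeq2. In the authors' deposited table the log2 fold changes of the 23 regions ran from -0.86 to 0.91, the smallest p was 0.0634 and every q was 1. With neither input nor spike-in values at hand, a shift shared by all regions cannot be measured.

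**Figure D4:**
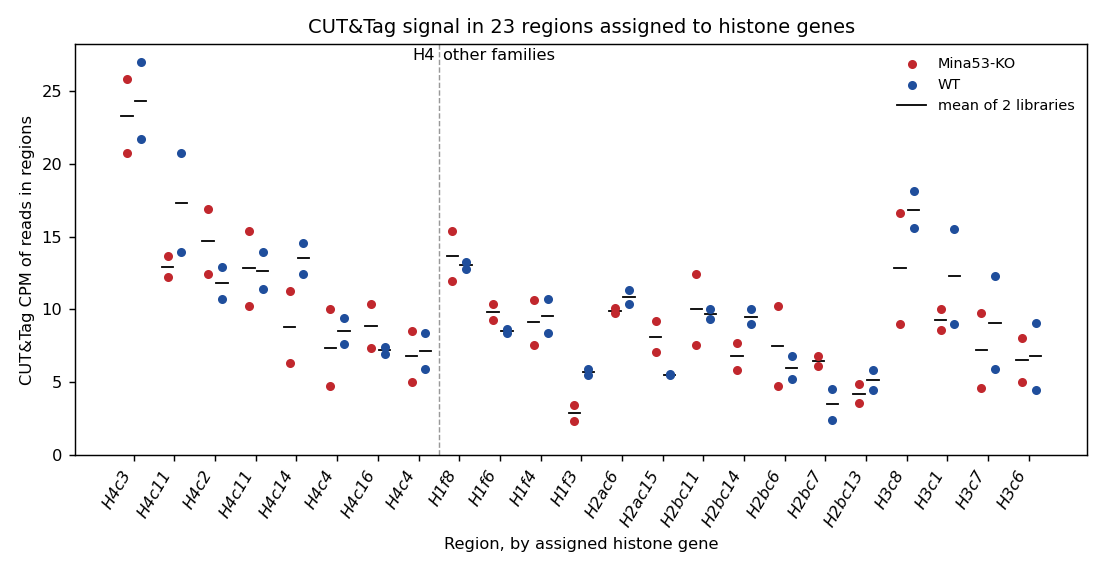
CUT&Tag signal of the 23 regions assigned to histone genes, in CPM of reads in regions per library, with KO libraries left of WT libraries, H4 regions left of the dashed line and lines at the mean of 2 libraries. The H4c3 region, at 23.3 CPM in KO and 24.3 CPM in WT on average, is the highest, and 15 of the 23 regions overlap between genotypes.

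CUT&Tag regions were assigned to 21 of the 72 histone genes (29.2%) and to 48.1% of the other genes in the table. None of the 5 histone genes at 10 CPM or more (H1f0, H1f2, H2bc4, H1f10 and H2ac25) had a region by the authors' gene name, whereas 82.0% of the 9849 other genes at that level had one. At 1 to 10 CPM, 4 of 14 histone genes had a region (28.6%; H1f4, H1f3, H2ac6 and H2bc6), against 64.1% of other genes. Under 1 CPM it was 17 of 53 histone genes (32.1%), against 39.0% of other genes. Counting regions within 1 kb of the gene start alone, the shares were 22.2% of all histone genes and 20.3% of other genes. By level they were 0 of 5 histone genes against 62.0% of other genes at 10 CPM or more, 21.4% against 39.8% at 1 to 10 CPM, and 24.5% against 9.11% under 1 CPM. These shares are descriptions with no test. In a dense cluster a region named for one histone gene can lie in another, as at the H2bc4 intron.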

How the data were processed

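RNA was measured in 3 Mina53-KO and 3 WT libraries and chromatin by CUT&Tag in 2 of each, grouped by the genotype labels. Per the labels, RNA-seq used oligo(dT) selection and a stranded kit. Per the submitters' processing notes, HISAT2, StringTie and GRCm39 were used. Not given in the sources used here are the tool versions, how reads were counted by strand and among copies, the peak caller and the test behind the authors' p. The authors deposited expected counts per gene, not scaled (8.98% of values were not whole), which were rounded for the tests. The authors deposited whole-number counts per merged region for CUT&Tag. The authors also deposited RPM (the count plus 1 over a library total), from which the library totals of an alternative were taken. A log2 fold change, p-value and q-value for each region come from the authors' deposited table and are quoted as theirs.

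All 57180 genes and all 69418 regions were fitted with edgeR 4.0.16 in R 4.3.3 (TMM, filterByExpr with a minimum count of 10, robust glmQLFit, glmQLFTest), KO against WT. P-values were adjusted by Benjamini-Hochberg over all 15298 genes or 69209 regions tested, with a threshold of 0.05. The filter kept 99.9% of the RNA-seq counts. CPM used the TMM-scaled library sizes, and 525 genes without a symbol stayed in the fits. Reads per gene were summed over regions with the same gene name. The fits were tested on simulated data. DESeq2 1.42.0, other scalings and filters, a replicate block, the mitochondrial share class as a covariate and each library left out were alternatives. Promoters came from RefSeq (GRCm38.p6), and coordinates of regions are GRCm39, with no conversion. Intervals and limits from 0 counts cover counting error only.

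The histone genes, the related lists and the tests were chosen with earlier results of these data known. Named were, in each family, the 3 genes with the highest level per length and the gene of smallest p per direction, H1f0, H1f10, tested H4 genes, up to 3 genes of each list by p, and, for CUT&Tag, the 2 genes with most reads per family, the 2 regions of smallest p per direction and all H4 regions. Slbp, H2ax, H2az1, H3f3b, the regions of H1f3 and H2bc6 and the pair sums were added after their values were seen. The result of 1 gene of the S phase list is not reported here.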

Additional observations from a re-analysis of the deposited data

How the results depend on the processing

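No setting called a histone gene: the count stayed at 0 of the tested genes, at 0 of the CUT&Tag regions and at 0 of the reads summed per gene under every scaling, filter, tool, block, covariate and left-out library tried. Over all genes the count of calls, 525, was 958 with DESeq2, 1695 with the mitochondrial share class as a covariate and 229 with the replicate block, and 145 to 506 with 1 library left out (179 if KO library 1 or KO library 2 was dropped, 313 for WT library 2 and 145 for WT library 3); the cause was not tested. The correlation of deviations between same-numbered libraries was 0.84, -0.65 and 0.30 for numbers 1 to 3 in RNA-seq and 0.06 in CUT&Tag, so not every RNA-seq pair deviated together and the numbers were not taken as pairs. For regions within 1 kb of the gene start, library sizes were estimated anew from such regions. The log2 ratios of the CUT&Tag family sums were then 0.12 for H1, 0.25 for H2A, 0.21 for H2B and 0.10 for H4. With all regions they were -0.05, 0.14, 0.05 and -0.10. All H2A regions lie within 1 kb, so the H2A shift came from the scaling alone. The H3 ratio on this scaling is not given here, so the positive ratios above do not cover all families. In the main fit, on the scaling from all regions, the H3 regions over gene starts had negative log2 fold changes. These were -0.41 (H3c8), -0.40 (H3c1) and -0.05 (H3c6). With 1 library left out the ratios of the family sums ranged from -0.22 to 0.00858 for H4, from -0.0884 to 0.20 for H2B, from -0.62 to 0.0390 for H3, from -0.19 to 0.0759 for H1 and from 0.0397 to 0.23 for H2A. With regions placed by coordinates they were -0.0109 for H4, -0.14 for H1, 0.14 for H2A, 0.13 for H2B and -0.32 for H3. Estimates near 0 that passed no test changed sign. With the share class these were -0.0398 for H1f0, -0.0225 for H1f2, -1.03 for H2ac19, 0.11 for H2ac6, 0.0170 for H2bc21 and -0.47 for H3c15, and with the replicate block -0.26 for H2ac19. H3c15 was -0.0026 with RLE size factors, -0.0074 with no count filter and -0.0022 with DESeq2. With 1 library left out the ranges were -0.0136 to 0.24 for H1f0, -0.58 to 0.61 for H2ac19, -0.60 to 0.20 for H2ac6, -0.23 to 0.00816 for H2bc21, -0.42 to 0.72 for H3c15 and -0.25 to 0.0419 for H3c4. Without a change of sign they were 0.13 to 0.77 for H1f10, 0.0199 to 0.40 for H2bc4, 0.50 to 1.33 for H2ac18, 0.29 to 0.73 for H4c9, -0.85 to -0.0984 for H2bc27 and -1.72 to -0.13 for H3c14. The log2 ratios of the RNA family sums moved by less than 1 SD between libraries, yet with the share class they were -0.0249 for H1, -0.00795 for H2B and 0.16 for H4, against 0.13, 0.11 and 0.37. H2B was -0.0030 without KO library 2, and H4 ranged from 0.17 to 0.56 with 1 library left out. Of the 10 genes with the highest level per length, 9 were also among the 10 highest by CPM. Depth limits the genes averaging under about 10 counts per library, which were not tested.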
